A study of Arabidopsis thaliana with 4 samples.

Results

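Brassinosteroids are the steroid growth hormones of plants, and the genes described here are the 10 listed loci of Arabidopsis thaliana for their synthesis, inactivation, perception and transcriptional output. They were found by locus identifier among the 33602 genes of the deposited table, and all 10 had a row. The seedlings were of the ecotype Columbia (Col), 14 days old and taken whole, after growth in half-strength MS medium lacking nitrogen at 22 °C with 16 h light and 8 h dark a day. The 0 h group had that medium only, and the 0.5 h group was moved to the same medium with 2.5 mM glutamine (Gln) for 0.5 h. Each group held 2 libraries, and the question is which genes answer glutamine within this short time. No seedlings moved without glutamine are among these samples, so glutamine, handling and time of day cannot be told apart.

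In the synthesis pathway, cytochrome P450 enzymes hydroxylate and oxidise a plant sterol until castasterone and brassinolide, the active hormones, are formed. The hormone is bound at the cell surface by the receptor kinase BRI1 with its co-receptor BAK1, which leads to inhibition of the kinase BIN2. The transcription factors BZR1 and BES1 are then dephosphorylated, act on growth genes, and repress synthesis genes such as DWF4 and CPD, so that the hormone restrains its own production. BAS1 works against synthesis by hydroxylating, and so inactivating, the finished hormone.

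The stretches before the 3 members that changed, DWF4, BR6OX2 and BAS1, are shown with that of BZR1, because brassinosteroid-controlled promoters are known for the letters that BZR1 and BES1 bind. Each is the 250 bases before the annotated gene start, 5′ to 3′ on the gene's own strand, from the RefSeq genome TAIR10.1 and its annotation, matched by locus tag since the deposited table carries no coordinates. Capitals mark the brassinosteroid response element (CGTGTG or CGTGCG), the E-box (CANNTG) and the G-box (CACGTG, which is also an E-box), each searched on both strands.
DWF4, minus strand, chr3:18817406-18817655: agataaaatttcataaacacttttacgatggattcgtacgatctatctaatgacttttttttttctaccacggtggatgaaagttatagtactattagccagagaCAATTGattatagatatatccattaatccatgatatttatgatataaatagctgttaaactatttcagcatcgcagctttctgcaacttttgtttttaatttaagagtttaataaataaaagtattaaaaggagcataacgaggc
BR6OX2, plus strand, chr3:11810476-11810725: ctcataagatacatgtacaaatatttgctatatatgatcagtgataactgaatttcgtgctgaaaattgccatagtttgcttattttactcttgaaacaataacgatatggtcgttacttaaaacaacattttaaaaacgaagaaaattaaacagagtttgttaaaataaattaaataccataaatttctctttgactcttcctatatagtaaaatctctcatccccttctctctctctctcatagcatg
BAS1, plus strand, chr2:11380213-11380462: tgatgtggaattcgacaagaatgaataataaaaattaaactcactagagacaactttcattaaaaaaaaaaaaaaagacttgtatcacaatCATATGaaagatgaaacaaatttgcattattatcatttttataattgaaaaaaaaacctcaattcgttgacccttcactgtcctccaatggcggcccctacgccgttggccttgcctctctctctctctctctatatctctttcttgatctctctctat
BZR1, plus strand, chr1:28185254-28185503: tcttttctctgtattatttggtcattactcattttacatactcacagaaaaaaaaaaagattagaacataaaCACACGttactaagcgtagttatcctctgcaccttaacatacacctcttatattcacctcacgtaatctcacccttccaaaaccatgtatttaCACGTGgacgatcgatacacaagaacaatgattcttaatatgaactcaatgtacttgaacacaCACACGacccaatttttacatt

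Among the 10 members, only the BZR1 window held the response element, with 2 copies starting 178 and 22 bases before the gene start and a G-box at 85. Of 27443 nuclear protein-coding genes, 6.71% had the element and 6.49% a G-box in the same window. An E-box stood in the windows of 9 members, all but BR6OX2, and in 55.3% of all windows. In the BAS1 window it started 159 bases before the gene, and in the DWF4 window 145 bases before it. These are matches of letters in 250 bases, and windows without them say nothing of sites farther away.

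The 4 libraries held 20429739 to 27203584 reads in genes, recovered from the steps of the deposited values. The 2nd library at 0.5 h had the fewest reads and the highest chloroplast share, 0.379% against 0.0569 to 0.0974% in the others. For some genes, results are therefore also given without it. Replicates were counted as separate samples, since their reads differed by more than counting error. The labels do not say whether they came from separate cultures, and p-values therefore measure the spread between these libraries only. Shoot transcripts were abundant in all 4 libraries (RBCS1A, a RuBisCO subunit gene, at 7605 to 8092 RPKM). Root genes were detected as well, with PYK10 at 158 to 273 RPKM and CASP1 at 7.69 to 15.9 RPKM, whereas the root hair genes EXPA7 and COBL9 stayed at or below 1.76 RPKM. In whole seedlings, fewer cells of a type and less RNA per cell cannot be told apart.

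At 0.5 h, DWF4 and BR6OX2 rose, BAS1 fell, and the other 6 tested members did not pass the test. Levels are RPKM (reads per kilobase, scaled to library size by the authors) given as mean ± SD with n = 2 libraries per time. Tested were the 18039 genes averaging 1 RPKM or more, with limma on log2(RPKM + 1), and a gene was called at a Benjamini-Hochberg adjusted p below 0.05. Of the 10 members 9 reached that minimum, of which 2 were called higher and 1 lower. Over all tested genes 6.71% were called higher and 5.11% lower, 11.8% in either direction. The median log2 fold change was 0.19 over the 9 members and -0.03 over all tested genes. Groups did not overlap in 5 of the 9 tested members, beside 59.7% of all tested genes. Members were chosen with earlier results of these data known, so these shares are no independent test.

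**Figure D1:**
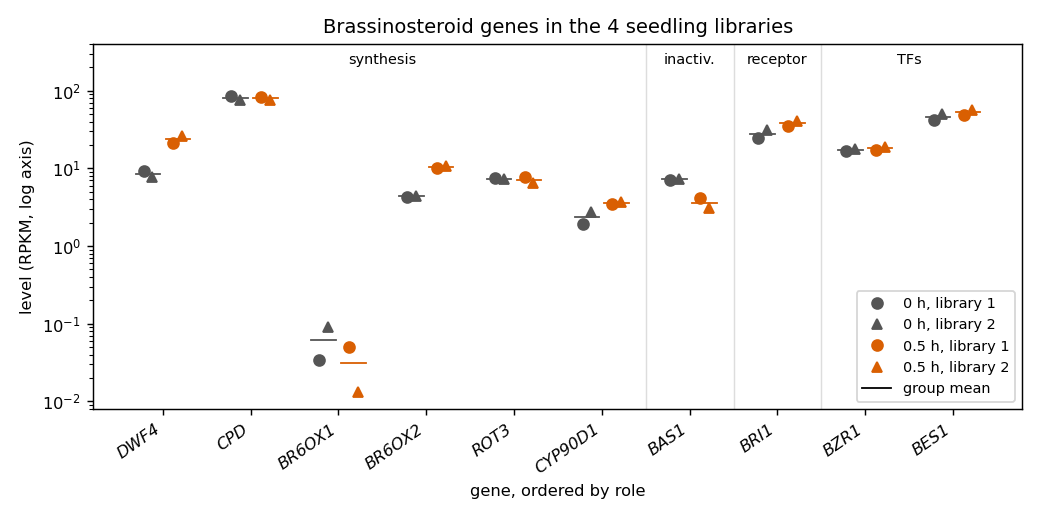
Level of each of the 10 genes in RPKM (vertical log axis) in the 2 libraries at 0 h (grey) and the 2 at 0.5 h (orange), with horizontal lines for group means. DWF4 and BR6OX2 are above, and BAS1 below, their 0 h values in both 0.5 h libraries, while BR6OX1 stays below 0.1 RPKM throughout.

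DWF4 (AT3G50660) codes for the side-chain hydroxylase that is regarded as the flux-controlling step of brassinosteroid synthesis. Its level was 9.31 and 7.74 RPKM in the libraries at 0 h and 21.5 and 26.4 RPKM in those at 0.5 h. The lower 0.5 h library was thus well above the higher 0 h library. Mean levels were 8.53 ± 1.11 and 23.9 ± 3.46 RPKM, 2.80-fold higher at 0.5 h. On the log2(RPKM + 1) scale the change was 1.38 ± 0.16 (SE; 95% interval 1.01 to 1.76; limma adjusted p = 0.0058). The call held without any single library, with changes of 1.24 to 1.53. At 0 h DWF4 had been the fifth most abundant of the 10 transcripts, just above ROT3 and BAS1. At 0.5 h it stood above BZR1, with no overlap between their libraries.

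BR6OX2 (AT3G30180) codes for the oxidase of the last steps, which makes castasterone and converts it to brassinolide. Both 0 h libraries were close together at 4.34 and 4.44 RPKM, and those at 0.5 h were at 10.1 and 10.7 RPKM. The gap between times was many times the spread within either. From 4.39 ± 0.0714 RPKM the mean went to 10.4 ± 0.441 RPKM, 2.38-fold higher, and the log2 change was 1.08 ± 0.13 (95% interval 0.78 to 1.39; limma adjusted p = 0.0062). This call too held without any single library (1.05 to 1.12). At 0 h BR6OX2 lay below BAS1 and ROT3 in every library, and at 0.5 h above both in every library.

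Its near relative BR6OX1 (AT5G38970), an oxidase that makes castasterone but in Arabidopsis is not known to make brassinolide, was hardly detected. It held 1 and 4 reads at 0 h and 2 and 0 reads at 0.5 h. The library without a read allows up to 0.0789 RPKM by a floor of 3 reads, which covers counting error only. BR6OX1 was below the minimum and not tested, and no fold change is given. Of the paired oxidase genes, BR6OX2 therefore supplied almost all reads at both times.

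CPD (AT5G05690), the gene of a steroid oxidase early in the pathway, was the most abundant member, above 89.6% of tested genes in mean level. Its libraries read 84.7 and 75.3 RPKM at 0 h and 83.2 and 77.0 RPKM at 0.5 h, so the groups overlapped. The means were 80.0 ± 6.59 and 80.1 ± 4.40 RPKM, with a log2 change of 0.0032 ± 0.14 (95% interval -0.34 to 0.34; limma adjusted p = 0.99). The interval leaves out a change of the size fitted for DWF4. Both genes are known targets of repression by BZR1 and BES1, whose part in these levels was not tested.

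Within each library the ratio of DWF4 to CPD, looked at after both values were seen, was 0.110 and 0.103 at 0 h and 0.258 and 0.342 at 0.5 h. The groups did not overlap, and the log2 ratio differed by 1.48 (exact two-sided permutation test, n = 2 per time, p = 0.333). With 2 libraries against 2 that is the smallest p this test can give, here and for the ratios below.

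ROT3 (AT4G36380) and CYP90D1 (AT3G13730) code for side-chain hydroxylases that are known to act redundantly. ROT3 was at 7.57 and 7.25 RPKM at 0 h and at 7.66 and 6.46 RPKM at 0.5 h, overlapping groups with a log2 change of -0.07 ± 0.14 (95% interval -0.40 to 0.27; limma adjusted p = 0.79). CYP90D1 was the lower of the pair, at 1.94 and 2.76 RPKM at 0 h and 3.45 and 3.68 RPKM at 0.5 h. Both of its 0.5 h libraries lay above both 0 h libraries, yet the change of 0.46 ± 0.18 did not pass (95% interval 0.04 to 0.88; limma adjusted p = 0.15). Leaving out the 1st library at 0 h gave CYP90D1 a change of 0.28, and leaving out the 2nd gave 0.63. ROT3 exceeded CYP90D1 by a ratio of 3.90 and 2.63 at 0 h and of 2.22 and 1.75 at 0.5 h. The log2 ratio was 0.70 lower at 0.5 h in the mean (-0.70; exact permutation test, n = 2 per time, p = 0.333). It ran from -0.42 without the 1st library at 0 h to -0.98 without the 2nd.

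BAS1 (AT2G26710), the gene of the inactivating hydroxylase, fell. It was at 7.19 and 7.31 RPKM at 0 h and at 4.14 and 3.14 RPKM at 0.5 h, with no overlap. Mean levels were 7.25 ± 0.0835 and 3.64 ± 0.709 RPKM, 1.99-fold lower at 0.5 h, and the log2 change was -0.84 ± 0.16 (95% interval -1.21 to -0.47; limma adjusted p = 0.021). The call rested on 3 of the libraries: it ended on leaving out the 1st at 0 h (-0.85, limma adjusted p = 0.098), the 2nd at 0 h (-0.83, limma adjusted p = 0.095) or the 2nd at 0.5 h (-0.68, limma adjusted p = 0.071). By limma-voom on recovered reads, which needs no pseudocount of 1 RPKM, BAS1 changed by -0.99 ± 0.19, BR6OX2 by 1.25 ± 0.17 and DWF4 by 1.49 ± 0.17 on the log2 scale. All 3 were called by that tool as well, which called 1315 of the 18039 tested genes higher and 1086 lower. A pseudocount of 5 RPKM gave smaller changes, -0.51 for BAS1 and 0.72 for BR6OX2, which were still called. At 0.5 h BAS1 overlapped CYP90D1, the lowest of the other detected members.

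BRI1 (AT4G39400), the main brassinosteroid receptor, was at 24.7 and 30.8 RPKM at 0 h and at 35.1 and 41.0 RPKM at 0.5 h. Its groups stood apart, which held for 59.7% of all tested genes. Its log2 change of 0.44 ± 0.16 did not pass (95% interval 0.06 to 0.83; limma adjusted p = 0.13). Leaving out the 1st library at 0 h gave 0.29, and leaving out the 2nd gave 0.60.

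Neither transcription factor gene passed the test. BZR1 (AT1G75080) was at 16.9 and 18.0 RPKM at 0 h and 17.4 and 18.8 RPKM at 0.5 h, with a log2 change of 0.05 ± 0.13 (95% interval -0.26 to 0.35; limma adjusted p = 0.83). BES1 (AT1G19350), its closest relative, was at 42.5 and 50.2 RPKM at 0 h and 49.1 and 56.8 RPKM at 0.5 h, a change of 0.19 ± 0.15 (95% interval -0.18 to 0.56; limma adjusted p = 0.46). Leaving out the 1st library at 0 h or the 2nd at 0.5 h brought the BES1 change to 0.072 or 0.087, and leaving out the 2nd at 0 h or the 1st at 0.5 h to 0.31 or 0.29. The groups of both genes overlapped. BES1 exceeded BZR1 in every library, by a ratio of 2.51 to 3.02. The log2 ratio was 0.14 higher at 0.5 h (exact permutation test, n = 2 per time, p = 0.333), and leaving out the 1st or the 2nd library at 0 h gave 0.069 or 0.22. As both proteins are controlled mainly by phosphorylation, transcript levels do not show their activity.

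**Figure D2:**
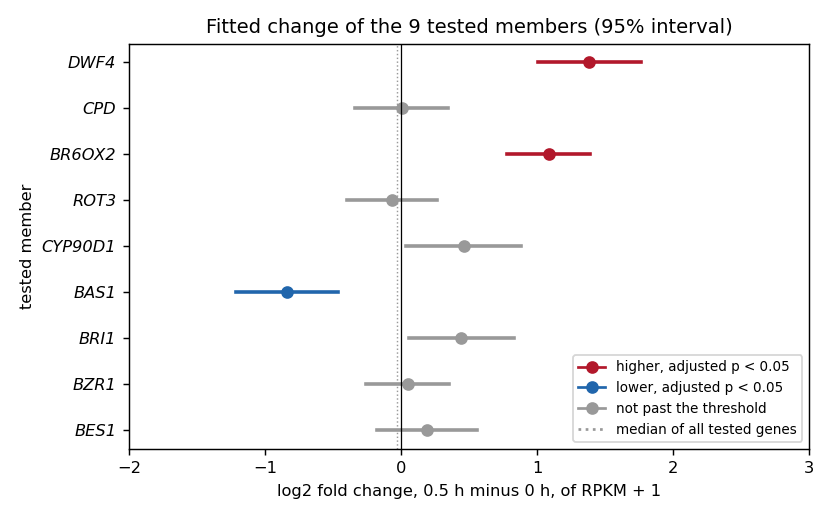
Fitted log2 fold change at 0.5 h against 0 h (horizontal axis, on RPKM + 1) for the 9 tested members, with 95% limma intervals; the dotted line is the median of all tested genes, -0.03. The intervals of DWF4 (1.01 to 1.76), BR6OX2 (0.78 to 1.39) and BAS1 (-1.21 to -0.47) lie farthest from 0.

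Of the 10 members, 4 overlap another annotated gene, namely CPD, ROT3, BZR1 and BES1. No source used here states whether counting used strand, so a neighbour's reads cannot be told apart from theirs. DWF4, BR6OX2 and BAS1 overlap none and had no multi-mapped reads. BZR1 and BES1 shared at most 0.040 and 0.037 of their reads with other places. The same limit of overlap holds for the markers PYK10, CASP1, EXPA7, TCH3, LHCB1.3 and RCA. It also holds for CYP72C1, UGT73C6, BRL3, DWF1, BAK1, BIN2, BIL1 and DET2.

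Beyond the members, 6 lists of other pathway genes held 58 loci, of which 51 were tested. Of these 10 were called higher and 2 lower, and the median log2 change was -0.03. Without single libraries the higher calls numbered 5 to 9 and the lower calls 0 to 4. The lists are given by role, each count beside the 6.71% of all tested genes called higher and the 5.11% called lower. As the lists were chosen with earlier results of these data known, these counts are no independent test.

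**Figure D3:**
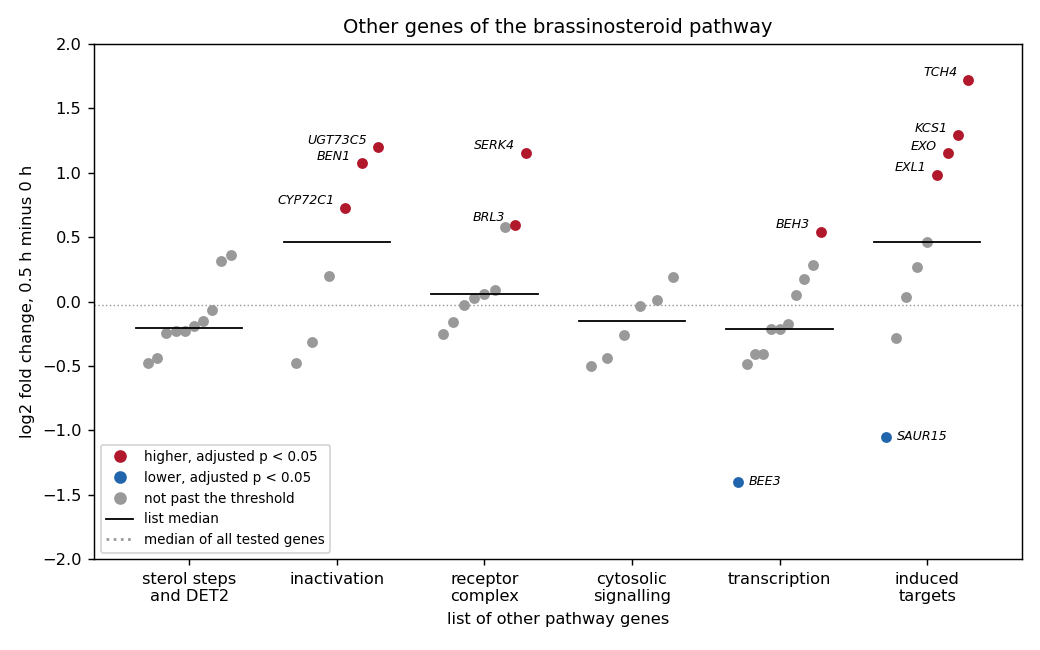
Fitted log2 fold change (vertical axis, 0.5 h against 0 h) of the tested genes in 6 lists of other pathway genes, with called genes in red (higher) or blue (lower) and named, and a black line for each list's median. Calls appear in the inactivation, receptor complex, transcription and induced target lists, and 0 of the sterol and cytosolic signalling genes are called.

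The steps that supply the pathway, from sterol synthesis to the steroid reductase DET2, gave 0 calls among 10 tested genes by limma and 0 by limma-voom, with 3 at an unadjusted p below 0.05, which 28.7% of all tested genes had. Their median change was -0.21, with a range of -0.48 to 0.36. SMT1, a sterol methyltransferase gene, had 177 ± 16.1 and 159 ± 6.79 RPKM at 0 and 0.5 h. DWF1, the gene of a sterol reductase, had 72.9 ± 5.10 and 94.0 ± 6.38 RPKM (0.36 ± 0.14, limma adjusted p = 0.15). DET2 had 19.7 ± 0.567 and 13.9 ± 1.70 RPKM (-0.48 ± 0.14, limma adjusted p = 0.074).

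Among 6 other genes of brassinosteroid inactivation 3 were called higher, opposite to BAS1, and 0 lower (median 0.46). CYP72C1, a cytochrome P450 related to BAS1, was at 9.19 and 10.1 RPKM at 0 h and 16.4 and 16.9 RPKM at 0.5 h (0.73 ± 0.13, limma adjusted p = 0.017). BEN1, a reductase-like gene implicated in lowering brassinosteroid levels, was at 8.01 and 8.47 RPKM and then at 16.6 and 20.4 RPKM (1.07 ± 0.14, limma adjusted p = 0.0084). UGT73C5, a glucosyltransferase that conjugates brassinosteroids and also other compounds, was at 24.3 and 20.4 RPKM and then at 47.4 and 57.7 RPKM (1.20 ± 0.16, limma adjusted p = 0.0084), with up to 0.11 of its reads multi-mapped. In each of the 3 genes both 0.5 h libraries exceeded both 0 h libraries, and groups without overlap held for 59.7% of all tested genes. The CYP72C1 call ended without either 0 h library or without the 2nd at 0.5 h (changes of 0.67, 0.79 and 0.71; limma adjusted p = 0.098, 0.056 and 0.065). BAT1, an acyltransferase gene, had overlapping groups (38.6 ± 12.8 and 43.4 ± 5.42 RPKM; limma adjusted p = 0.61). BIA1 and UGT73C6 had lower means at 0.5 h, as BAS1 did, but did not pass (-0.48 ± 0.16 and -0.31 ± 0.19; limma adjusted p = 0.099 and 0.32). Up to 0.97 of the UGT73C6 reads were multi-mapped.

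Of 9 tested genes of the receptor complex 2 rose and 0 fell (median 0.06). SERK4, a co-receptor that also acts in immunity, went from 18.1 and 18.6 RPKM to 45.1 and 39.1 RPKM (1.15 ± 0.14, limma adjusted p = 0.0062), with up to 0.56 of its reads multi-mapped, so that reads of near copies may be included. BRL3, a receptor close to BRI1 and mostly expressed in vascular tissue, went from 4.73 and 5.86 RPKM to 8.43 and 8.53 RPKM (0.60 ± 0.14, limma adjusted p = 0.044), a call that ended without any one of the 4 libraries (0.47 to 0.73, limma adjusted p = 0.081 to 0.24). With a pseudocount of 5 RPKM the BRL3 change was 0.39. The main co-receptor BAK1, at 41.7 ± 0.253 and 44.4 ± 2.47 RPKM, and the receptor-associated kinase BSK1, at 56.6 ± 5.79 and 57.5 ± 1.68 RPKM, did not pass (limma adjusted p = 0.70 and 0.92).

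Phosphatase and GSK3-like kinase genes of the cytosolic relay gave 0 calls among 6 tested by limma, with 2 at an unadjusted p below 0.05 beside 28.7% of all tested genes (median -0.15). Limma-voom called 1 lower, BSL3, a phosphatase gene (-0.56, limma-voom adjusted p = 0.043), beside 1086 of all 18039 tested genes called lower by limma-voom. BIN2, the kinase that inhibits BZR1 and BES1, had 118 ± 13.1 and 86.7 ± 1.97 RPKM (-0.44 ± 0.15, limma adjusted p = 0.11). BIL1, a kinase of the same subgroup, had 65.4 ± 0.430 and 66.1 ± 1.36 RPKM.

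Among 11 tested genes of other transcription factors 1 rose and 1 fell (median -0.21). BEH3, of the same family as BZR1, went from 15.5 and 14.0 RPKM to 21.9 and 21.8 RPKM (0.54 ± 0.13, limma adjusted p = 0.041), and its call ended without any one of the 4 libraries (0.47 to 0.61, limma adjusted p = 0.084 to 0.19). BEE3, a bHLH gene known to be induced early by brassinosteroid, fell from 84.3 and 66.9 RPKM to 21.8 and 35.5 RPKM (-1.40 ± 0.24, limma adjusted p = 0.016). Its groups were far apart, and the call ended without the 1st library at 0 h (-1.24, limma adjusted p = 0.068). Its relatives BEE1 (-0.41 ± 0.14, limma adjusted p = 0.11) and BEE2 (-0.21 ± 0.18, limma adjusted p = 0.49) did not pass. BEH2, of the BZR1 family, had 55.6 ± 2.996 and 63.0 ± 0.493 RPKM (limma adjusted p = 0.42).

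Of 9 genes known to be induced by brassinosteroid in Arabidopsis 4 rose and 1 fell (median 0.46). BEE1, BEE2 and BEE3, also known as induced genes, are counted with the transcription factors above and not here. TCH4, a xyloglucan-modifying enzyme gene that also responds to touch, went from 550 and 443 RPKM to 1509 and 1764 RPKM (1.72 ± 0.19, limma adjusted p = 0.0054). EXO, a growth-promoting extracellular protein gene, went from 301 and 293 RPKM to 587 and 745 RPKM (1.15 ± 0.18, limma adjusted p = 0.012), and its relative EXL1 from 139 and 101 RPKM to 209 and 264 RPKM (0.98 ± 0.21, limma adjusted p = 0.029). KCS1, a wax and fatty acid elongation gene, went from 16.2 and 14.4 RPKM to 35.8 and 42.2 RPKM (1.29 ± 0.15, limma adjusted p = 0.0058). In all 4 genes the groups did not overlap, as in 59.7% of all tested genes. SAUR15, a small auxin-induced gene also raised by brassinosteroid, fell from 2.24 and 2.45 RPKM to 0.830 and 0.428 RPKM (-1.05 ± 0.21, limma adjusted p = 0.024). This rests on few reads (27 and 33, then 11 and 4). The SAUR15 change was -1.80 with a pseudocount of 0.1, -0.38 with one of 5 and -1.94 by limma-voom. The other 4 listed genes did not pass, with EXL5 at 0.46, EXL3 at 0.27, IAA19 at 0.04 and EXPA8 at -0.29 (limma adjusted p = 0.14, 0.33, 0.95 and 0.62). The groups of IAA19 and EXPA8 overlapped. Calls ended for EXO without the 2nd library at 0.5 h (0.98, limma adjusted p = 0.068), for EXL1 without that library or the 2nd at 0 h (0.82 and 0.75; 0.13 and 0.089), and for SAUR15 without either 0 h library or the 2nd at 0.5 h (-1.09, -1.002 and -0.87; limma adjusted p = 0.11, 0.13 and 0.072).

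Both listed touch genes, TCH3 and the TCH4 described above, and 1 of the 2 tested clock genes were also called in this comparison. Over all tested genes 11.8% were called in either direction. TCH3, a touch-induced calmodulin-like gene, was at 363 and 297 RPKM at 0 h and at 1396 and 1936 RPKM at 0.5 h (2.32 ± 0.22, limma adjusted p = 0.0047). The clock gene CCA1 was at 4.67 and 4.73 RPKM and then at 2.13 and 1.02 RPKM (-1.18 ± 0.23, limma adjusted p = 0.022), LHY was below 1 RPKM in all 4 libraries and not tested, and TOC1 had 79.8 ± 4.58 and 88.9 ± 7.29 RPKM (limma adjusted p = 0.52). Of 5 shoot markers LHCA1 and LHCA3, light-harvesting genes, fell (-0.87 and -1.29) and 0 rose, beside 5.11% of all tested genes called lower. RBCS1A (0.0044), LHCB1.3 (-0.26) and RCA (-0.53) did not pass (limma adjusted p = 0.99, 0.44 and 0.089). Of 6 root markers 3 were tested, of which 0 passed by limma or limma-voom. An unadjusted limma p below 0.05 was reached by 0 of them, beside 28.7% of all tested genes. Their 0 h libraries differed widely, with PYK10 at 158 and 273, CASP1 at 7.69 and 15.9 and CASP2 at 3.14 and 5.57 RPKM. These tests therefore cannot show that the root share was steady. DWF4, BR6OX2 and BAS1 moved across the same 4 libraries as the called marker genes. The part of handling, time of day and shoot or root share in the changes of DWF4, BR6OX2 and BAS1 was not tested.

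**Figure D4:**
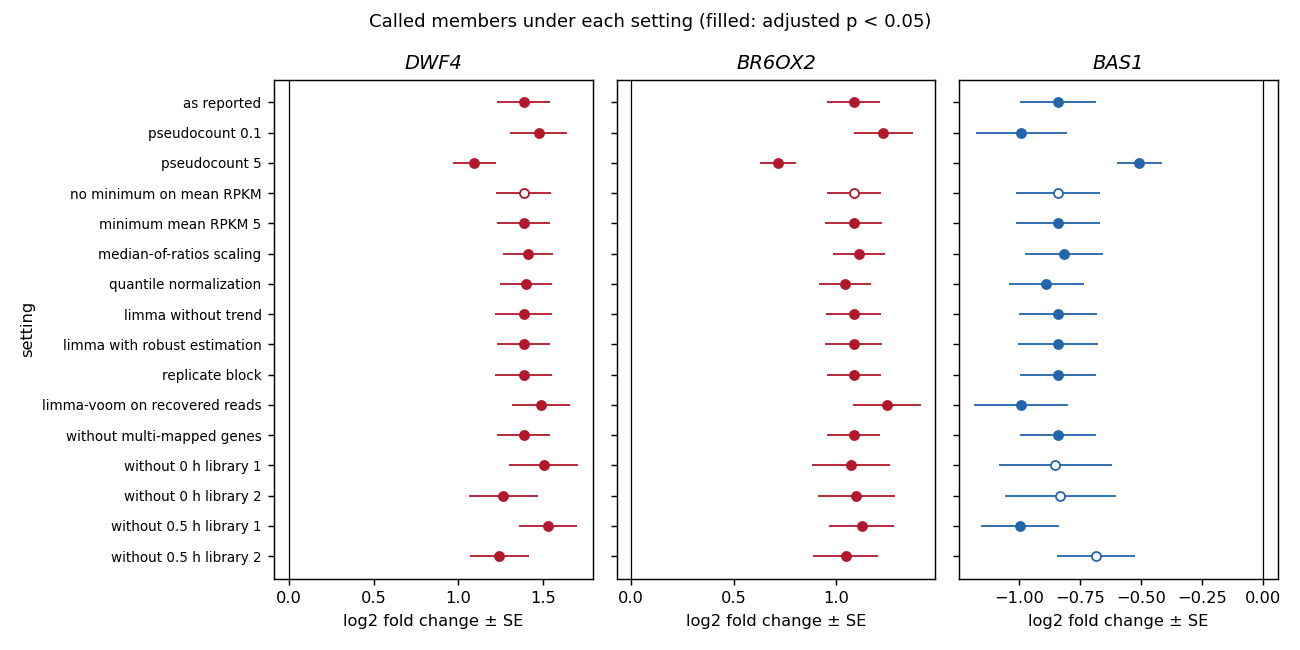
Log2 fold change ± SE (horizontal axes) of DWF4, BR6OX2 and BAS1 as reported and under 15 other settings (vertical axis), filled where the adjusted p is below 0.05. DWF4 (1.09 to 1.53) and BR6OX2 (0.72 to 1.25) are open only without a minimum on the mean RPKM, and BAS1 (-0.997 to -0.51) also without 3 of the libraries.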

How the data were processed

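RNA of 4 whole-seedling libraries, grouped by sample title, was analysed. The deposited table gives RPKM values, scaled with TMM (trimmed mean of M-values) by the authors per the file name, a gene length in kb, and a fraction that its header calls the highest multi-mapped ratio. The submitters' processing notes name TAIR10 and SAMtools. Aligner, counter and strand use were not given in the sources used here. RPKM times length lies on steps with 0.5 read added, and recovered reads were whole within 0.05 read for 99.992 to 100.0% of genes without multi-mapped reads. Recovered reads served limma-voom and the depths.

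In R 4.3.3, limma 3.58.1 was run with its intensity trend on log2(RPKM + 1) of genes averaging 1 RPKM or more, with group as the only term, two-sided, with 2 residual and 4.824 prior degrees of freedom. The scale understates changes of low genes. P-values were adjusted over all 18039 tested genes. Scripts were tested on simulated data.

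Named were all 10 members, the called genes of each list and the 2 of highest mean per list, plus clock, touch and tissue markers. DET2, BSL3, BEE1, BEE2, BIA1, UGT73C6, EXL3, EXL5, EXPA8 and IAA19 were named after their values were seen. A locus listed as KIB1 does not carry that name in the annotation and was left out. Members and lists were chosen with earlier results of these data known. Names, overlaps and upstream windows came from RefSeq TAIR10.1, whose coordinates are those of that assembly and were not set against the submitters' TAIR10. Python 3.11.15, pandas 2.3.3 and matplotlib 3.10.9 were used for tables and plots.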

Additional observations from a re-analysis of the deposited data

How the results depend on the processing

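Tried were another pseudocount (0.1, 5), another minimum on the mean RPKM (none, 5), other scaling (quantile, median-of-ratios), limma robust or untrended, a replicate block, limma-voom on recovered reads, leaving out genes with a multi-mapped share above 0.05, and leaving out each library. Only 9 of these settings can change the fitted log2 change itself. Over the 9 tested members they gave 81 values, of which 77 kept their direction, 3 of them losing the call, and 4 changed sign. The other 6 settings change only the error or the genes tested. Without a minimum on the mean RPKM, 163 genes were called higher and 85 lower in place of 1211 and 922, with 0 members in either direction and 2 and 0 of the pathway lists. DWF4, BR6OX2 and BAS1 kept their fitted changes there, with limma adjusted p of 0.052, 0.053 and 0.089.

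Leaving out single libraries gave 489 to 1131 higher and 234 to 787 lower calls over all genes. Members called lower were 0 to 1 (BAS1), and pathway genes called higher were 5 to 9 and lower 0 to 4. With 1 library left at a time point, its spread is assumed to be that of the other time. The near-zero changes that turned sign were those of CPD (-0.080 to 0.086), ROT3 (-0.17 to 0.043) and BZR1 (-0.0059 to 0.10). The ratios kept their direction without any single library, though their sizes ran from -0.98 to -0.42 for ROT3 to CYP90D1, from 0.069 to 0.22 for BES1 to BZR1 and from 1.28 to 1.69 for DWF4 to CPD.

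Libraries of the same number did not deviate together (correlation -0.078 over 18039 genes). With the replicate block 1127 genes were called higher and 834 lower, 2 members higher and 1 lower, and 9 and 2 of the pathway genes, BEH3 losing its call (limma adjusted p = 0.056). A pair of libraries per time limits the precision of every value, and at 0 to 4 reads a change of BR6OX1 was not detectable at this depth.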
